A study of Mus musculus with 6 samples.

Results

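Genes of fatty acid and triglyceride synthesis were compared between livers of Lncenc1 mutant mice (HO) and wild type mice (WT). The set held 34 genes, from the regulators of lipogenesis to the enzymes that assemble triglyceride, and all 34 were rows of the deposited liver table of 24034 genes, found by gene name. The genes were taken by step: 4 regulators, 4 genes of acetyl-CoA and NADPH supply, 3 of fatty acid synthesis, 11 of elongation and desaturation, and 12 of glycerolipid assembly, the last with the acyl-CoA synthetases and the lipases Pnpla2 and Pnpla3. The 3 HO libraries came from C57BL/6 mice of genotype lncenc13A/3A and the 3 WT libraries from C57BL/6 mice of genotype lncenc1wt/wt, all at 25 weeks of age. HO was read as homozygous for a mutant allele, since the series speaks of knockout mice. The sources used here do not say what the allele changes in this long non-coding RNA gene, or which substrain of C57BL/6, sex, time of killing or feeding state the mice had. Genotypes were taken from the labels, and Lncenc1 RNA was not analysed here. No source states that each library is a different animal, so p-values measure only the spread between these samples.

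The liver makes fatty acids from acetyl-CoA that is exported from mitochondria as citrate and freed again in the cytosol, with NADPH as the reducing agent. Acetyl-CoA carboxylase makes malonyl-CoA, fatty acid synthase builds palmitate from it, and elongases and desaturases lengthen and unsaturate the product before it is esterified to glycerol. In hepatocytes insulin raises transcription of the pathway through SREBP-1c, glucose through ChREBP and oxysterols through LXR, and polyunsaturated fatty acids lower it. Most of these genes therefore follow feeding and the time of day.

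Expression was given as FPKM, fragments scaled to transcript length and to the mapped fragments of a library, so that levels can be compared between genes; between libraries a value is relative to the other genes of its library. Summed FPKM was 495570 to 518218 per library, and the spacing of low values gave relative depths of 19100000 to 24600000 read equivalents. Of the 34 genes, 32 had a mean of 0.5 FPKM or more and were tested, and each of these held at least 420.0 read equivalents in every library. The liver identity of the samples was checked with 7 hepatocyte genes, whose summed FPKM was 39358 to 43835 in HO and 44935 to 47667 in WT, most of it Alb. They did not move one way: 3 of the 7 (Cps1, Hnf4a and Apoa1) lay wholly above WT and 2 (Alb and Ttr) wholly below. Of all tested genes 6.42% lay wholly above and 21.4% wholly below. Cps1 rose (log2 change 0.86 ± 0.13, limma adjusted p = 0.0422). Some libraries stood apart in ways that bear on these genes. WT replicate 3 differed from the other WT libraries in clock output genes, and HO replicate 1 from the other HO libraries in acute phase genes, with values given below. Nnt, the mitochondrial transhydrogenase that makes NADPH, had 1.14, 0.794 and 1.48 FPKM in HO, against 26.1, 45.0 and 24.4 FPKM in WT. Nnt lies on chromosome 13, as Lncenc1 does, and its log2 change was -4.27 ± 0.26 (limma adjusted p = 0.00721). As background, the C57BL/6J substrain carries a deletion in Nnt. Genetic background and mutation cannot be told apart in any result here, nor in bulk liver can fewer hepatocytes be told apart from less RNA per hepatocyte.

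The promoters of 4 genes that lay lower in every HO library are shown as examples from supply, synthesis and elongation. Sequences are from RefSeq, build GRCm38.p6, 250 bases before to 50 after a transcription start, written 5′ to 3′ along the gene, and 28 of the 34 genes had 1 or more entries, the others being Elovl3, Scd1, Scd2, Fads1, Dgat1 and Dgat2. Capitals mark matches, on either strand, to CACGTG (the E-box core bound by ChREBP, USF and clock factors), TCACNCCAC (a form of the sterol regulatory element bound by SREBP) and CCAAT (the NF-Y box, often found beside SREBP sites). Me1 has 2 starts, and the upstream one has no match.
Me1 upstream start, chr9:86695865-86696164, minus strand: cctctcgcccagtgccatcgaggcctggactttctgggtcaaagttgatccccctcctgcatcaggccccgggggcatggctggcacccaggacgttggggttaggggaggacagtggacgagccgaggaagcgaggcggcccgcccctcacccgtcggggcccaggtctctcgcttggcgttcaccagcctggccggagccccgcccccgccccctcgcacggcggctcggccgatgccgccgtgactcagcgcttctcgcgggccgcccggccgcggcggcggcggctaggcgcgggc
Me1 downstream start, chr9:86687228-86687527, minus strand: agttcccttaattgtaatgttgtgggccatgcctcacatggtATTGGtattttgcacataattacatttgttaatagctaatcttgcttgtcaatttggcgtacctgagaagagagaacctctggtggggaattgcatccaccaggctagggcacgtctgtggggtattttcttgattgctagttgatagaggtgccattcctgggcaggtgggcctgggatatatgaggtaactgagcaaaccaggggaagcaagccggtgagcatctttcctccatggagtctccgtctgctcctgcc
Acly, chr11:100527951-100528250, minus strand: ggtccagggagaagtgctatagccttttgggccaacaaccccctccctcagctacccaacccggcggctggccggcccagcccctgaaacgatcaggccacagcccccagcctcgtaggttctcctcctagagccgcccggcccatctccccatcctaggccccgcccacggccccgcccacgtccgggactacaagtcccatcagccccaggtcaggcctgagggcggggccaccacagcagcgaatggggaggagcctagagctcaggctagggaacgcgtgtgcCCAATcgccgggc
Fasn, chr11:120824498-120824797, minus strand: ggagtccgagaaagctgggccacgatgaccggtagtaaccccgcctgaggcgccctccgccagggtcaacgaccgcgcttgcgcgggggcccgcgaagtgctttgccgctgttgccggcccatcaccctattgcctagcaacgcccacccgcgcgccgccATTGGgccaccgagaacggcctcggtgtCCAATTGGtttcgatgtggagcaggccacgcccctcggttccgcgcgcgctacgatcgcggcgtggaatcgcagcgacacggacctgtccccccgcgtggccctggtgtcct
Elovl5, chr9:77917115-77917414, plus strand: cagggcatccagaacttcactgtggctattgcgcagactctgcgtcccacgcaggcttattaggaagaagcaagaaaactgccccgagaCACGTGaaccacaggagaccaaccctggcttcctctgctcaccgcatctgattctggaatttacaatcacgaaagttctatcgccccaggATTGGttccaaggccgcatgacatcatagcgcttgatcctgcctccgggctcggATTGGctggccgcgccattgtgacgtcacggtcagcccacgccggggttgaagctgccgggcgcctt
The Fasn promoter has 3 NF-Y boxes, of which 2 overlap on opposite strands, starting 62 and 59 bases before the transcription start. Elovl5 has an E-box starting 161 bases before its start and 2 NF-Y boxes, and the Acly box lies after the start. Over the 37 promoters of the set, NF-Y boxes were found in 51.4%, against 37.4% of all 32851 promoters of the table, E-boxes in 10.8% against 7.15%, and the sterol element in 2.70% (1 promoter, of Mlxipl) against 1.24%. The LXR element, searched as AGGTCA repeated after a spacer of 4 bases, was in 0 of the 37 and in 5 of all promoters. These matches are descriptions of the letters and were not tested.

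Me1 was the one gene of the set that fell in HO, and most others had negative changes that did not pass the test. With limma and Benjamini-Hochberg adjustment at 0.05 over the 13250 genes tested, 1 of the 32 tested genes was lower in HO, where 108 of all tested genes were (0.815%). None was higher (limma, 1 at an unadjusted p under 0.05, against 5.01% of all tested genes), where 43 of all were (0.325%). An unadjusted p under 0.05 with a lower value was reached by 10 of the 32, against 16.5% of all tested genes. All 3 HO values lay below all 3 WT values in 11 of the 32, against 21.4% of all tested genes, and above them in 1, against 6.42%. A negative log2 change was found for 24 of the 32, against 64.6% of all, and the median log2 change was -0.33, against -0.09 over all tested genes. Wholly lower values thus made up 34.4% of the set, and lower and negative values were also more frequent than over all genes. The counts of called, higher and wholly higher genes, each 1 or none, are too small to compare with the shares over all genes. No test of the set as a whole was made. Log2 changes are HO over WT on the log2(FPKM + 0.5) scale, with standard errors from limma. The number of changed genes over the whole table depended on scaling, with 43 higher and 108 lower as deposited, 67 and 66 after median-of-ratios scaling, and 56 and 72 after quantile normalization. Me1 passed, and the number of negative changes was 23 of 32, under both scalings. The share of negative changes over all tested genes was not counted there. After median-of-ratios scaling the median log2 change was -0.22 in the set and -0.0022 over all tested genes. After quantile normalization these medians were -0.23 and -0.0020.

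**Figure D1:**
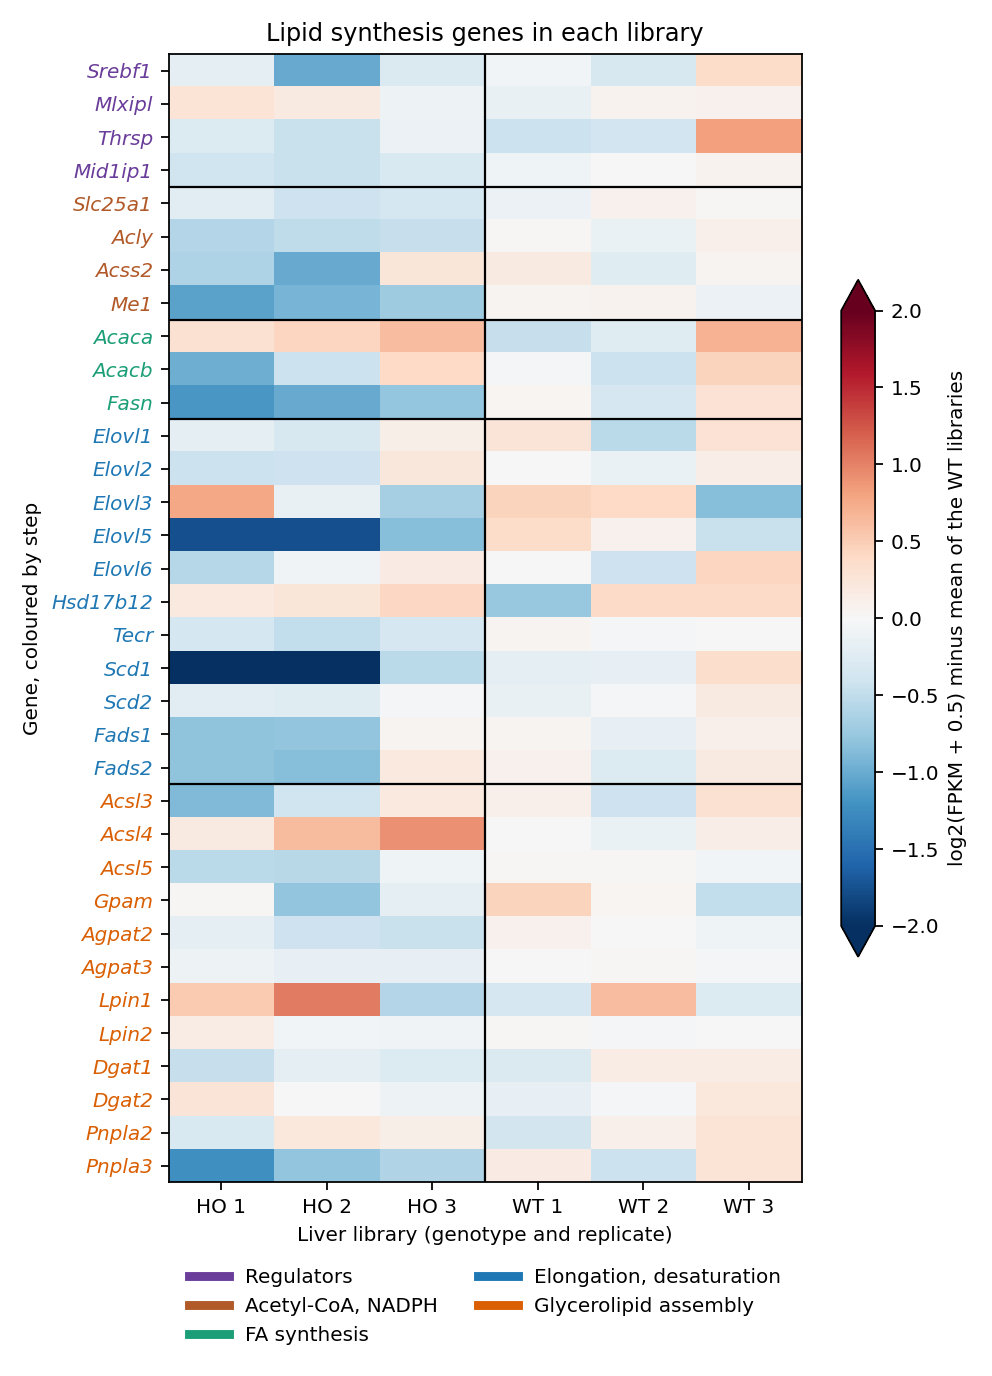
Each row is a gene of the set, grouped and coloured by step, and each column a liver library, HO left of WT. Colour is log2(FPKM + 0.5) minus the mean of the 3 WT libraries, with values beyond 2 drawn at the end of the scale. Me1, Acly, Fasn, Elovl5 and Scd1 are blue in all 3 HO libraries, while Fads1, Fads2 and Acss2 are blue in HO replicates 1 and 2 and near the WT level in HO replicate 3.

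**Figure D2:**
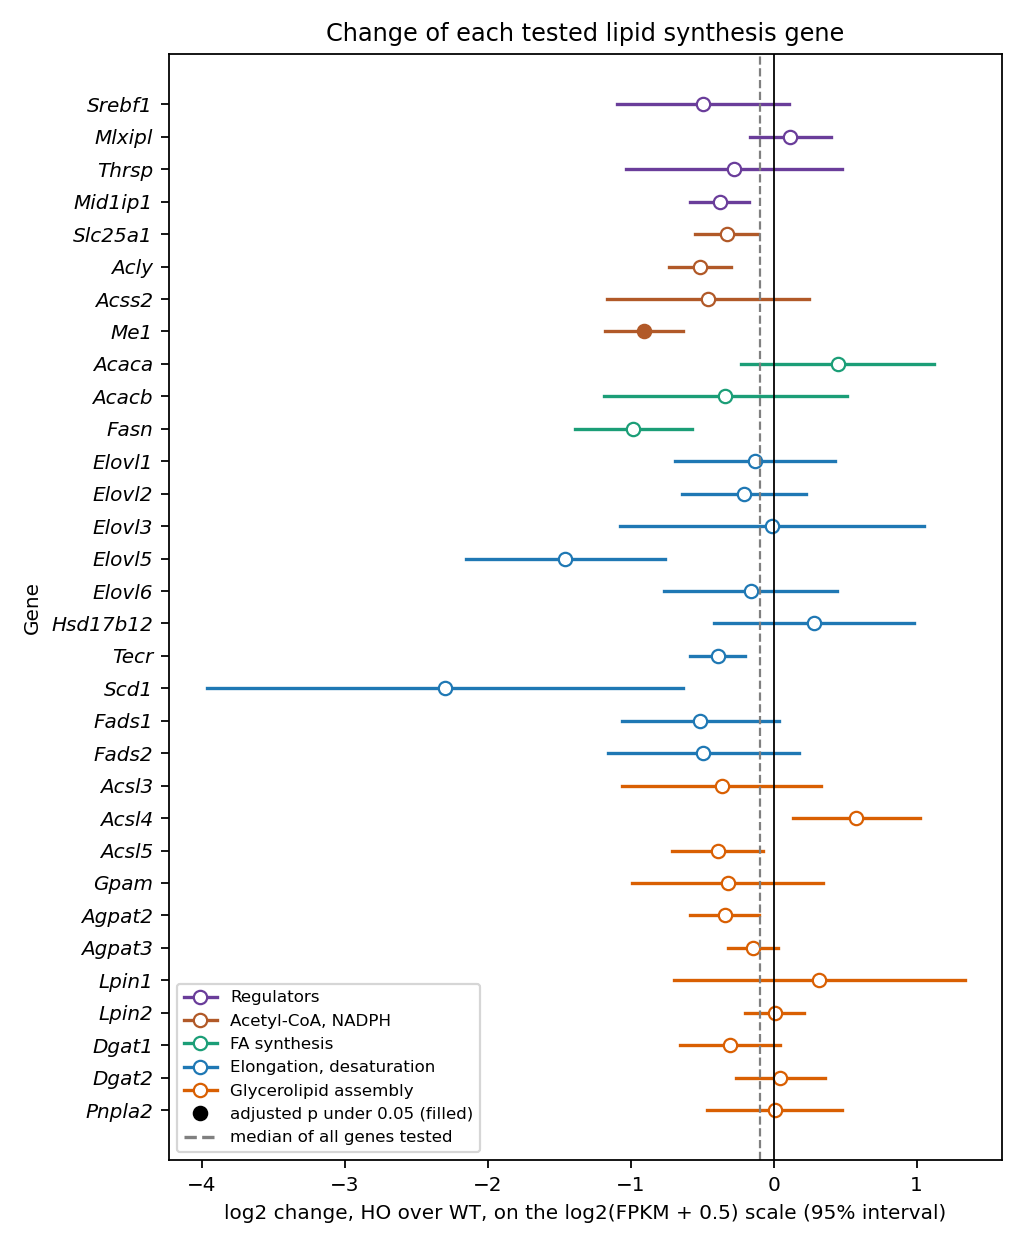
Points give the log2 change, HO over WT, of the 32 tested genes and lines its 95% interval from limma, on the log2(FPKM + 0.5) scale. The only filled point, for an adjusted p under 0.05, is Me1 at -0.91. The dashed line is the median of all tested genes, -0.09.

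None of the 4 regulators passed the test (limma), and their median log2 change was -0.33. Of the 4, 1 was lower at an unadjusted p under 0.05 (limma), against 16.5% of all tested genes. Srebf1, which encodes SREBP-1c and SREBP-1a, had 66.0, 37.1 and 61.9 FPKM in HO, against 72.9, 60.5 and 97.4 FPKM in WT, and the groups overlapped (log2 change -0.50 ± 0.25, limma adjusted p = 0.311). Mlxipl, the gene of ChREBP, had 140.0, 131 and 108 FPKM in HO and 105, 121 and 122 FPKM in WT, a log2 change of 0.12 ± 0.12 with a 95% interval of -0.17 to 0.40. Its level lay within a narrow band in all 6 libraries. Thrsp (Spot 14), a small protein linked to lipogenesis that responds to thyroid hormone and carbohydrate, had 187, 166 and 209 FPKM in HO and 168, 172 and 397 FPKM in WT. Only WT replicate 3 stood out, and without it the log2 change of Thrsp was 0.13 in place of -0.28. Mid1ip1, a Spot 14 relative that promotes polymerisation of acetyl-CoA carboxylase, had 26.2, 25.6 and 28.2 FPKM in HO, against 32.9, 34.9 and 36.6 FPKM in WT (log2 change -0.38 ± 0.09, limma adjusted p = 0.0804). Its groups did not overlap, but 25.5% of its exonic length is shared with an antisense gene, and strand-specific counting is not stated. The median of this step was -0.09 without WT replicate 3.

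Of the 4 genes of acetyl-CoA and NADPH supply Me1 fell, the other 3 did not pass the test, and the median log2 change was -0.49, with a negative change for all 4. Me1, the cytosolic malic enzyme that turns malate into pyruvate and makes NADPH, lies on chromosome 9 from 86581371 to 86695953 on the minus strand (mm10). It had 40.5, 44.9 and 52.5 FPKM in HO, against 89.0, 90.5 and 79.1 FPKM in WT. The HO mean of 46.0 ± 6.05 FPKM was 53.3% of the WT mean of 86.2 ± 6.18 FPKM (SD, n = 3 each), and the log2 change was -0.91 ± 0.12 (95% interval -1.18 to -0.63, limma adjusted p = 0.0284). Every HO value was far below the lowest WT value. The call was lost without HO replicate 2, HO replicate 3, WT replicate 1 or WT replicate 2 (limma adjusted p = 0.0799, 0.0503, 0.135 and 0.121), and with no filter on low genes (0.0521). Acly, the ATP citrate lyase that frees acetyl-CoA from citrate, had 52.5, 55.1 and 57.3 FPKM in HO, against 80.5, 71.6 and 84.8 FPKM in WT. Its log2 change of -0.52 ± 0.09 stood just outside the threshold (limma adjusted p = 0.0526), with no overlap and little spread in HO. Slc25a1, the mitochondrial citrate carrier, had 106, 91.8 and 96.8 FPKM in HO, against 114, 131 and 125 FPKM in WT (log2 change -0.33 ± 0.09, limma adjusted p = 0.114). The groups of Slc25a1 did not overlap either. Acss2, which makes acetyl-CoA from acetate, behaved otherwise: it had 38.3, 28.9 and 69.6 FPKM in HO and 66.6, 49.7 and 61.1 FPKM in WT, and HO replicate 3 exceeded all WT libraries (limma adjusted p = 0.422). The summed FPKM of the 4 genes was 245 ± 28.5 in HO and 348 ± 4.59 in WT (SD, n = 3 each), and without HO replicate 3 the median log2 change was -0.68.

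None of the 3 fatty acid synthesis genes passed the test (limma). Only Fasn was lower at an unadjusted p under 0.05 (limma), as 16.5% of all tested genes were. Fasn lay wholly below WT in HO, while the 2 acetyl-CoA carboxylase genes overlapped between the groups. Fasn (chromosome 11, 120805846 to 120824547, minus strand, mm10) had 35.1, 39.3 and 46.3 FPKM in HO, against 82.0, 63.1 and 96.9 FPKM in WT. The HO mean was 49.9% of the WT mean, but the log2 change of -0.98 ± 0.17 (95% interval -1.39 to -0.57) did not pass (limma adjusted p = 0.0526). It passed with array weights (limma adjusted p = 0.0390), over a range of 0.0390 to 0.185 for all alternatives. Acaca, the cytosolic carboxylase whose malonyl-CoA feeds fatty acid synthase, had 12.3, 13.4 and 15.3 FPKM in HO, and 7.01, 8.25 and 16.3 FPKM in WT (log2 change 0.45 ± 0.29, 95% interval -0.23 to 1.12, limma adjusted p = 0.411). All HO values exceeded those of WT replicates 1 and 2 and none that of WT replicate 3. Without HO replicate 1 and WT replicate 3, a comparison chosen after the data were seen, Acaca was higher by 0.87 (limma adjusted p = 0.0417). Acacb, the carboxylase at the mitochondrial surface whose malonyl-CoA restrains fatty acid oxidation, had 6.02, 8.95 and 16.3 FPKM in HO and 12.1, 9.01 and 17.0 FPKM in WT (limma adjusted p = 0.631). HO replicates 1 and 2 lay below every WT library and HO replicate 3 within the WT range. The ratio of Acaca to Acacb in a library was 2.04, 1.49 and 0.937 in HO and 0.581, 0.916 and 0.960 in WT, so that only HO replicates 1 and 2 were above all WT libraries.

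**Figure D3:**
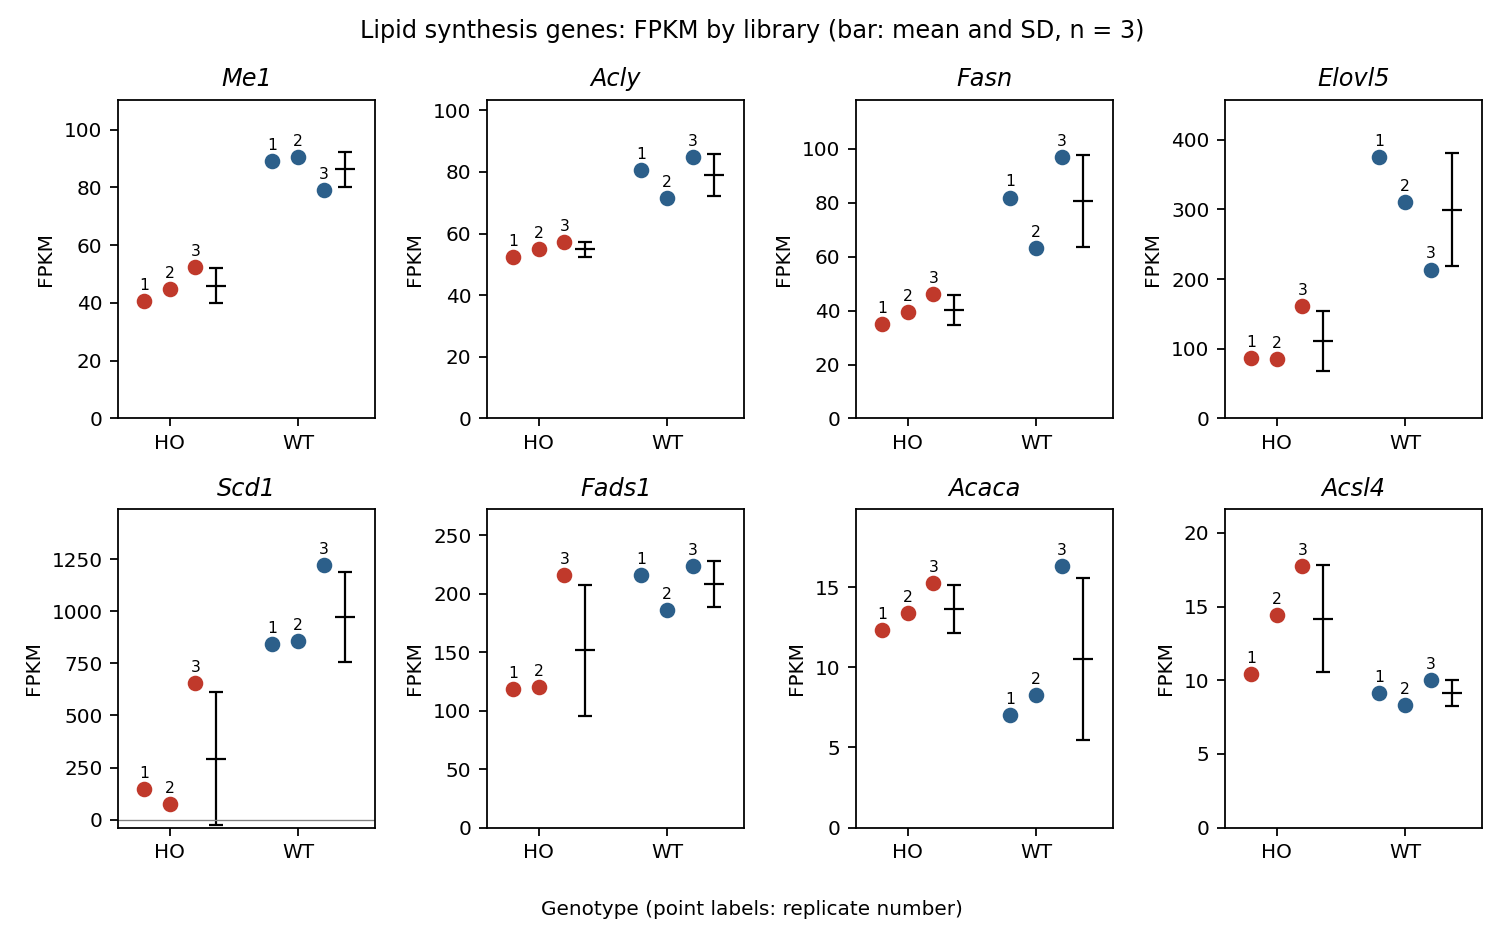
Panels give FPKM per library for 8 genes, with HO left of WT, points numbered by replicate, and the mean and SD of 3 libraries beside each group. In Me1, Acly, Fasn, Elovl5 and Scd1 all HO points lie below all WT points, in Acsl4 all lie above, and in Fads1 and Acaca the groups overlap. The SD bar of Scd1 in HO reaches below 0 because HO replicate 3 is far above the other HO libraries.

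Elongation and desaturation held the largest fitted log2 changes among the 32 tested genes, in Scd1 and Elovl5. Yet none of its 10 tested genes passed (limma), and the median log2 change was -0.30. Of the 10, 3 were lower and none higher at an unadjusted p under 0.05 (limma), against 16.5% and 5.01% of all tested genes. Scd1, the stearoyl-CoA desaturase that makes oleate and palmitoleate, was the most abundant gene of the set in WT. It had 148, 74.7 and 657 FPKM in HO, against 841, 858 and 1222 FPKM in WT. HO replicates 1 and 2 were far below the WT range and HO replicate 3 just below it. The log2 change of -2.30 ± 0.71 had a wide 95% interval of -3.97 to -0.64 (limma adjusted p = 0.132), and without HO replicate 3 it was -3.18 with a limma adjusted p of 0.0490, over a range of 0.0490 to 0.290 for all alternatives. Relative to Fasn in the same library, Scd1 stood at 4.23, 1.90 and 14.2 in HO and 10.3, 13.6 and 12.6 in WT, so that HO replicate 3 had a ratio above the WT range and the other HO libraries below it. Scd2, a paralogue of Scd1 expressed mainly outside the liver, was at 0.00477 to 0.0897 FPKM in HO and 0.0384 to 0.179 FPKM in WT, below the filter and too low to compare.

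Elovl5, which elongates polyunsaturated fatty acids, had 86.3, 85.5 and 162 FPKM in HO, against 375, 311 and 214 FPKM in WT. The groups did not overlap and the HO mean was 37.1% of the WT mean, but WT replicate 3 and HO replicate 3 came close to each other (log2 change -1.46 ± 0.30, limma adjusted p = 0.0703). Tecr, the reductase of the last step of elongation, had 78.9, 71.4 and 79.2 FPKM in HO, against 104, 97.4 and 99.4 FPKM in WT (log2 change -0.39 ± 0.08, limma adjusted p = 0.0736). Its difference was small but larger than the spread within either group. Fads1 and Fads2, the delta-5 and delta-6 desaturases of polyunsaturated fatty acids, lie next to each other on chromosome 19 and varied together. Fads1 had 118, 120.0 and 216 FPKM in HO and 216, 186 and 223 FPKM in WT (limma adjusted p = 0.259), and Fads2 had 176, 169.7 and 352 FPKM in HO and 329, 256 and 348 FPKM in WT (limma adjusted p = 0.365). For both, HO replicates 1 and 2 lay below all WT libraries and HO replicate 3 among or above them, and the ratio of Fads2 to Fads1 stayed between 1.41 and 1.63 in HO and between 1.38 and 1.56 in WT.

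The other elongases and elongation enzymes overlapped between the groups. Elovl2, which acts on long polyunsaturated chains and lies on chromosome 13 as Lncenc1 does, had 142 to 224 FPKM in HO and 175 to 210.0 FPKM in WT. Elovl6, which takes palmitate to stearate, had 11.3 to 19.1 FPKM in HO and 12.7 to 23.2 FPKM in WT, and its 95% interval of the log2 change was -0.76 to 0.44. Elovl1, an elongase of saturated very long chains, had 14.6 to 19.9 FPKM in HO and 12.5 to 22.5 FPKM in WT. Elovl3, whose liver expression in mice is known to be circadian and male-biased, spread most within groups, at 60.2 to 164 FPKM in HO and 53.0 to 130.0 FPKM in WT. Hsd17b12, the 3-ketoacyl-CoA reductase of elongation, had 99.2 to 115 FPKM in HO and 50.7 to 113 FPKM in WT, with WT replicate 1 alone low. The 95% intervals of the log2 changes of these last 2 genes, -1.07 to 1.05 and -0.42 to 0.98, leave room for changes of either sign.

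Glycerolipid assembly differed less, with none of 11 tested genes past the threshold (limma) and a median log2 change of -0.14, or -0.04 after median-of-ratios scaling. Of the 11, 2 were lower and 1 higher at an unadjusted p under 0.05 (limma), against 16.5% and 5.01% of all tested genes. The 3 acyl-CoA synthetases, which activate fatty acids, did not move alike. Acsl4, which prefers arachidonate, was the one gene of the set with all HO values above all WT values, at 10.4, 14.4 and 17.7 FPKM in HO, against 9.14, 8.29 and 10.0 FPKM in WT (log2 change 0.58 ± 0.19, limma adjusted p = 0.148). HO replicate 1 exceeded the highest WT library by little. Acsl5 had 89.1, 88.0 and 122 FPKM in HO, against 132, 132 and 125 FPKM in WT (log2 change -0.39 ± 0.14, limma adjusted p = 0.164), and 8.31% of its exonic length overlaps Zdhhc6 on the opposite strand. The ratio of Acsl5 to Acsl4 within a library was 8.54, 6.12 and 6.88 in HO and 14.4, 15.9 and 12.4 in WT. That this ratio did not overlap follows from the separation of both genes and is no further result. Acsl3 had 4.84 to 10.7 FPKM in HO and 6.89 to 11.7 FPKM in WT.

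Of the enzymes that build triglyceride from glycerol 3-phosphate, Agpat2, a main acyltransferase of phosphatidate synthesis in liver, had 121, 103 and 99.5 FPKM in HO, against 144, 137 and 128 FPKM in WT (log2 change -0.34 ± 0.10, limma adjusted p = 0.123). Agpat3 had 59.5, 57.1 and 56.7 FPKM in HO, against 63.8, 65.2 and 62.7 FPKM in WT, a log2 change of -0.14 whose 95% interval was -0.32 to 0.03. Neither of these acyltransferases overlapped between groups, and the change of Agpat3 was close to the median of all tested genes. Gpam, the mitochondrial acyltransferase of the first step, had 26.4 to 46.9 FPKM in HO and 32.7 to 63.0 FPKM in WT. Lpin2, a phosphatidate phosphatase, was almost level, with 67.9 to 79.5 FPKM in HO and 70.7 to 72.6 FPKM in WT and a 95% interval of the log2 change of -0.20 to 0.22. Lpin1, its relative that is raised by fasting, had 58.9, 84.3 and 27.1 FPKM in HO and 32.3, 62.9 and 33.9 FPKM in WT, and replicate 2 was highest in each group. Dgat2, which catalyses the last step and was the most abundant gene of this step, had 268, 224 and 209 FPKM in HO and 200.4, 219 and 259 FPKM in WT (log2 change 0.05 ± 0.13, 95% interval -0.27 to 0.36, limma adjusted p = 0.869). Dgat1, which acts mainly on fatty acids from outside the cell, had 9.53, 11.7 and 10.9 FPKM in HO and 10.8, 14.8 and 14.7 FPKM in WT (limma adjusted p = 0.287). Among the lipases, Pnpla2 (ATGL), which starts triglyceride breakdown, had 24.5 to 35.0 FPKM in HO and 23.3 to 36.6 FPKM in WT. Pnpla3, a relative of Pnpla2 that is induced with lipogenesis, was below the filter at a mean of 0.488 FPKM, with 0.0331, 0.227 and 0.323 FPKM in HO, against 0.906, 0.429 and 1.01 FPKM in WT. It passed the filter in 3 of the alternatives, those without 1 HO library, and was fitted with no filter; in these 4 fits it was not called (limma adjusted p = 0.170 to 0.234).

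Among libraries, the set was lowest in HO replicates 1 and 2, and HO replicate 3 lay close to WT. The median over the 34 genes of log2(FPKM + 0.5) minus the WT mean was -0.33, -0.42 and -0.11 in HO replicates 1, 2 and 3, and 0.00, -0.04 and 0.13 in WT replicates 1, 2 and 3. Over all tested genes the same median was -0.10, -0.10 and -0.08 in HO and between -0.01 and 0.01 in WT. HO replicate 3 was the highest HO library for 22 of the 34 genes and WT replicate 3 the highest WT library for 20. In 16 of the 32 tested genes HO replicates 1 and 2 both lay below all WT libraries, against 27.3% of all tested genes. In 5 of these 16 (Acss2, Acacb, Elovl2, Fads1 and Fads2) HO replicate 3 did not. The other pairs differed less from all genes. HO replicates 2 and 3 both lay below all WT libraries in 12 of the 32, against 31% of all tested genes. HO replicates 1 and 3 did so in 11, against 26.4%. Summed FPKM over elongation and desaturation was 1040, 884 and 1903 in HO, against 2275, 2147 and 2527 in WT. Scd1 and Elovl5 held most of that difference, with means of 293 and 111 FPKM in HO, against 974 and 300 FPKM in WT. Of the 10 tested genes of that step 7 overlapped between the groups. The sum over glycerolipid assembly was 772, 719.8 and 695 in HO, against 763, 798 and 787 in WT.

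Lipogenic genes were not the only ones that set single libraries apart. Dbp, a clock output gene, had 48.2, 44.0 and 60.8 FPKM in HO and 22.5, 21.7 and 84.7 FPKM in WT, and Ciart, a clock repressor, had 7.24, 7.60 and 10.7 FPKM in HO and 0.916, 2.71 and 13.0 FPKM in WT. WT replicate 3 was highest for both, and also for Thrsp, Fasn, Scd1 and Srebf1. Over the 34 genes of the set it was the highest WT library for 20 and the lowest for 7, Me1 and Elovl5 among them. None of 12 tested clock genes passed (limma). Only 1 was lower at an unadjusted p under 0.05 (limma), against 16.5% of all tested genes. The smallest p was that of Per1, with 5.39, 6.16 and 5.03 FPKM in HO, against 7.30, 8.10 and 10.4 FPKM in WT (limma adjusted p = 0.0972). Next was Per2, with 7.81, 7.78 and 8.21 FPKM in HO and 3.31, 4.38 and 9.25 FPKM in WT (limma adjusted p = 0.344). Of 10 fasting and refeeding genes none passed (limma). At an unadjusted p under 0.05 (limma) 3 were lower and 1 higher, against 16.5% and 5.01% of all tested genes. The gluconeogenic Pck1 had 715 to 765 FPKM in HO and 662 to 848 FPKM in WT. Ppargc1a had 0.927 to 1.08 FPKM in HO and 1.20 to 1.69 FPKM in WT. Pdk4 had 0.770 to 2.06 FPKM in HO and 1.81 to 3.13 FPKM in WT. In that list Fgf21, a hormone of fasting, had 2.95, 5.49 and 3.07 FPKM in HO, against 7.85, 9.63 and 7.58 FPKM in WT, and Irs2, an insulin receptor substrate, 4.40, 4.99 and 4.75 FPKM in HO, against 2.33, 1.67 and 3.23 FPKM in WT (limma adjusted p = 0.0747 and 0.0806).

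The summed FPKM of 12 acute phase genes was 5683, 19018 and 17130 in HO and 5221, 4393 and 5836 in WT; none of them passed (limma, 8 at an unadjusted p under 0.05, all higher), and Serpina3n and Fgb had the smallest p (limma adjusted p = 0.0868 and 0.0970). Of all tested genes 5.01% were higher at an unadjusted p under 0.05 (limma), and 6.42% lay wholly above WT in HO. In 5 of the 12 acute phase genes (Serpina3n, Fgb, Orm1, Mt1 and Mt2) all HO libraries, replicate 1 included, lay above all WT libraries. Serpina3n had 283, 860.4 and 823 FPKM in HO, against 192, 150.0 and 195 FPKM in WT, and in the other 7 genes HO replicate 1 lay within or below the WT range. Scd1, Fasn, Me1 and Elovl5 of HO replicate 1 lay below all WT libraries. Among markers of other cells, 5 of 7 listed adipocyte genes were in the table, with a summed FPKM of 12.5 to 26.7 in HO and 58.5 to 79.7 in WT, while Adipoq and Plin1 were at 0 in all libraries. The difference lay mostly in Cfd, with 4.42, 0.986 and 12.2 FPKM in HO, against 49.5, 56.2 and 44.0 FPKM in WT (limma adjusted p = 0.0637), and Plin4 and Fabp4 overlapped between the groups. The 7 Kupffer cell and macrophage genes summed to 58.0 to 78.1 FPKM in HO and 70.1 to 126 FPKM in WT, and the 6 stellate cell and fibroblast genes to 21.2 to 28.5 FPKM in HO and 33.8 to 39.5 FPKM in WT. The 4 erythroid genes summed to 255 to 429 FPKM in HO and 484 to 506 FPKM in WT, with Hbb-bt, Hba-a1 and Hbb-bs wholly lower and Alas2 overlapping. The 5 neutrophil genes summed to 2.69 to 7.46 FPKM in HO and 1.18 to 3.97 FPKM in WT. Of these, S100a9 had 2.45, 3.28 and 3.75 FPKM in HO, against 0.893, 0.491 and 1.75 FPKM in WT (limma adjusted p = 0.0828), and Ly6g was at 0 in all libraries. The 5 lymphocyte genes summed to at most 0.596 FPKM in HO and 1.09 FPKM in WT. The part of clock, feeding, acute phase and cell type differences in the values of the lipogenic genes was not tested.

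**Figure D4:**
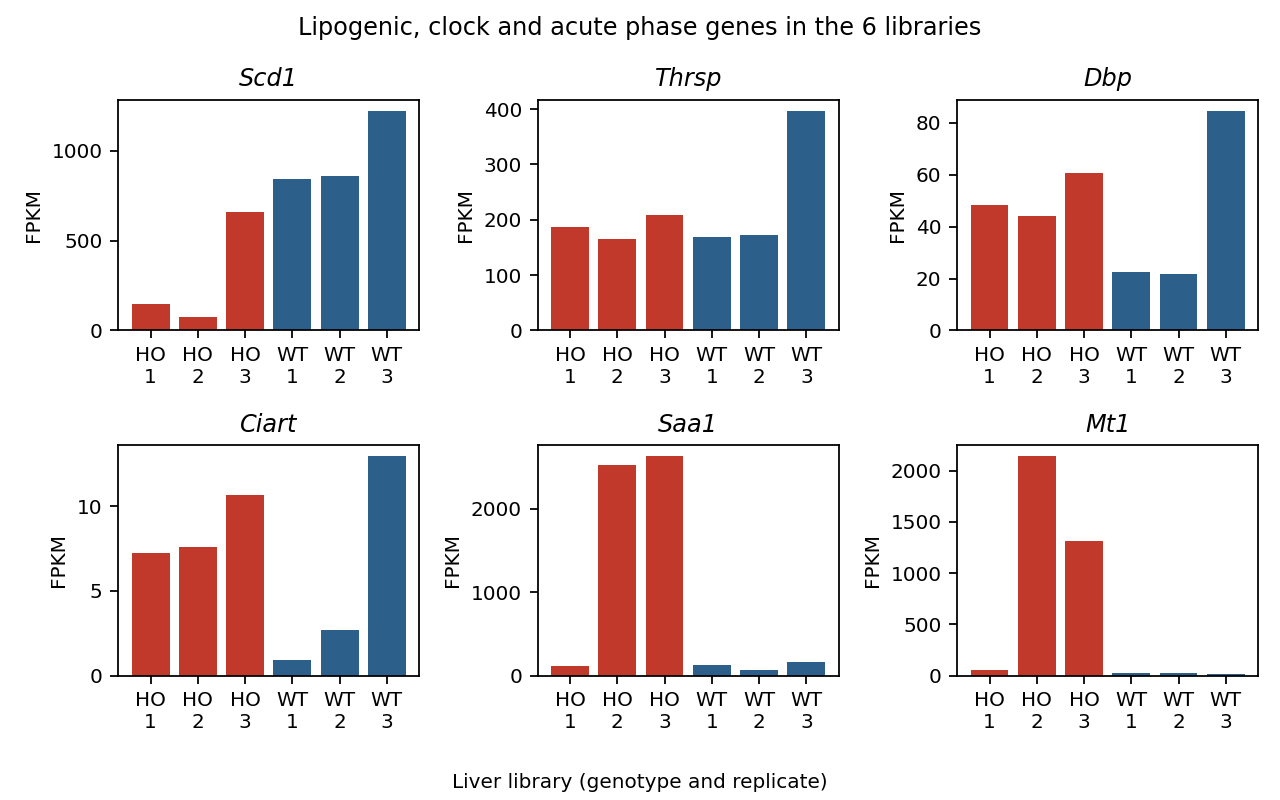
Bars give FPKM per liver library, HO left of WT, for 2 lipogenic genes (Scd1, Thrsp), 2 clock genes (Dbp, Ciart) and 2 acute phase genes (Saa1, Mt1). WT replicate 3 is the highest library for Thrsp, Dbp and Ciart. HO replicate 1 lies within the WT range for Saa1 at 111 FPKM and above it for Mt1 at 55.5 FPKM, and its Scd1 is at 148 FPKM.

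Around the set, 3 further genes of carbon and lipid handling fell in HO. Of 76 names listed for neighbouring steps 71 were in the table. Of the 63 tested 3 were lower and none higher (limma), against 0.815% and 0.325% of all tested genes. At an unadjusted p under 0.05 (limma) 20 were lower and 2 higher, against 16.5% and 5.01% of all tested genes. Their median log2 change was -0.16, against -0.09 over all tested genes. Slc25a10, the mitochondrial dicarboxylate carrier that exports malate, had 69.4, 60.7 and 74.3 FPKM in HO, against 124, 127 and 121 FPKM in WT (log2 change -0.86 ± 0.10, limma adjusted p = 0.0240). Malate is the substrate of Me1, but a link between the changes of Slc25a10 and Me1 was not tested. Gpd1, the cytosolic dehydrogenase that makes the glycerol 3-phosphate backbone, had 126, 138 and 120.4 FPKM in HO, against 195, 225 and 196 FPKM in WT (log2 change -0.68 ± 0.10, limma adjusted p = 0.0339). Lipa, the lysosomal acid lipase, had 47.5, 41.0 and 47.2 FPKM in HO, against 85.8, 84.6 and 73.0 FPKM in WT (log2 change -0.83 ± 0.10, limma adjusted p = 0.0284). Each of these 3 genes had HO values far below the lowest WT value. The calls were lost without HO replicate 3, WT replicate 1 or WT replicate 2 for all 3, without HO replicate 2 for Gpd1 and Lipa, and without HO replicate 1 for Gpd1 (limma adjusted p = 0.0503 to 0.135), and for Gpd1 also with median-of-ratios scaling (0.0583), no filter (0.0627) or eBayes without a trend (0.0674).

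By role, sugar entry to lipogenesis had a negative log2 change for all 8 genes, with 1 past the threshold (Gpd1), 6 at an unadjusted p under 0.05 and a median log2 change of -0.53. Pklr, the liver pyruvate kinase and a classic ChREBP target, had 62.3, 72.6 and 56.4 FPKM in HO, against 93.1, 109.9 and 174 FPKM in WT (log2 change -0.93 ± 0.23, limma adjusted p = 0.0903). Other NADPH enzymes and their carrier had a negative change for all 6 tested genes, with 1 past the threshold (Slc25a10). At an unadjusted p under 0.05 (limma) there were 5, and the median was -0.43. Beside both lists, 64.6% of all tested genes had a negative change. Of all tested genes 16.5% were lower at an unadjusted p under 0.05 (limma), and 0.815% passed the threshold as lower. Idh1, the cytosolic isocitrate dehydrogenase, had 167, 143 and 176 FPKM in HO, against 224, 215 and 191 FPKM in WT (limma adjusted p = 0.121).

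The genes that process or partner SREBP did not move together. Insig1, which holds SREBP in the endoplasmic reticulum and is itself an SREBP target, had 66.6, 64.8 and 95.1 FPKM in HO, against 170.0, 126 and 153 FPKM in WT (log2 change -0.99 ± 0.18, limma adjusted p = 0.0526). Scap, which escorts SREBP to the Golgi, had 39.8, 38.0 and 33.6 FPKM in HO, against 28.5, 29.4 and 30.6 FPKM in WT (log2 change 0.32 ± 0.09, limma adjusted p = 0.117). The 6 genes of this list had a median log2 change of -0.07. Among 10 upstream factors, with a median of 0.12, the adipogenic receptor Pparg had 3.20, 2.66 and 4.68 FPKM in HO, against 8.58, 7.19 and 5.52 FPKM in WT, and the coactivator Ppargc1b 2.52, 1.63 and 2.49 FPKM in HO, against 1.19, 1.27 and 1.34 FPKM in WT (limma adjusted p = 0.0893 and 0.115). Neither list had a gene past the threshold (limma). At an unadjusted p under 0.05 (limma), 1 SREBP gene and 2 upstream factors were lower, against 16.5% of all tested genes. In each list 1 gene was higher, against 5.01%.

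**Figure D5:**
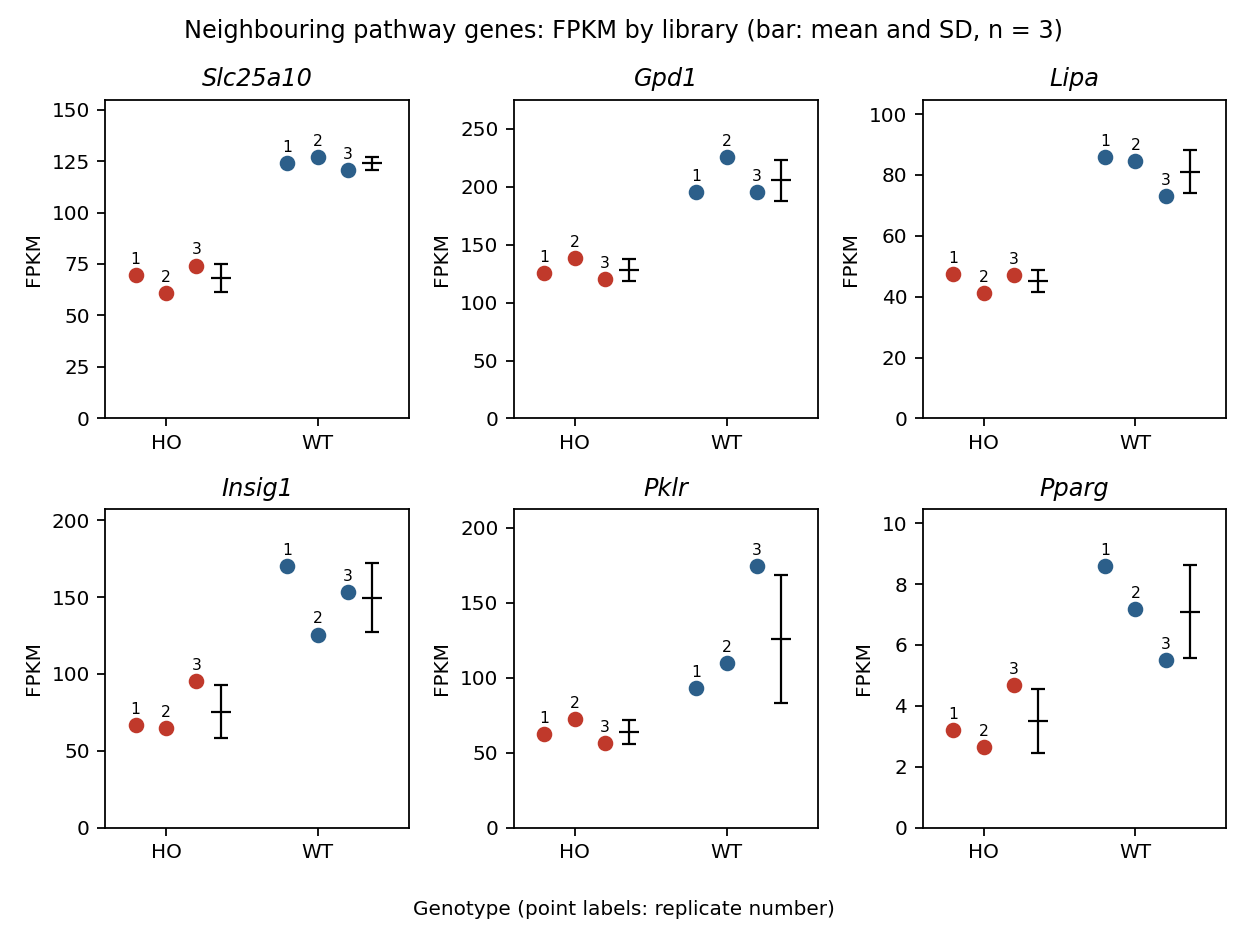
Panels give FPKM per library for 6 genes outside the set, HO left of WT, with the mean and SD of 3 libraries beside each group and points numbered by replicate. Slc25a10, Gpd1 and Lipa passed the test, Insig1, Pklr and Pparg did not, and in all 6 genes every HO point lies below every WT point.

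In the remaining lists no gene besides Lipa passed the threshold (limma). Mitochondrial fatty acid synthesis, which makes the precursor of lipoic acid, had a median log2 change of -0.05 over 7 genes, and its 2 genes with the smallest p were the malonyl transferase Mcat, with 9.83 to 10.8 FPKM in HO and 11.8 to 14.3 FPKM in WT, and the lipoate synthase Lias, with 12.5 to 16.4 FPKM in HO and 15.8 to 20.2 FPKM in WT. Other elongation and desaturation genes had a median of -0.05 over 6 genes, led by Fads3, with 2.17 to 4.23 FPKM in HO and 3.02 to 6.49 FPKM in WT, and Hacd4, with 0.429 to 0.787 FPKM in HO and 0.637 to 0.913 FPKM in WT. Other glycerolipid enzymes had a median of -0.09 over 14 genes. Beside 16.5% of all tested genes, 2 of the 14 were lower at an unadjusted p under 0.05 (limma). These were Fitm1, a protein of lipid droplet formation, at 42.2, 26.0 and 36.6 FPKM in HO, against 66.7, 78.2 and 60.7 FPKM in WT, and the monoacylglycerol acyltransferase Mogat1, at 1.65, 1.37 and 1.36 FPKM in HO, against 6.94, 5.60 and 2.14 FPKM in WT (limma adjusted p = 0.0590 and 0.105). Besides Lipa, the lipolysis genes included the monoacylglycerol lipase Mgll, at 55.6, 62.3 and 68.2 FPKM in HO, against 76.2, 84.9 and 91.5 FPKM in WT (limma adjusted p = 0.0932), and the 6 tested genes of that list had a median of -0.19. Of these 6, 3 (Lipa, Mgll and G0s2) were lower at an unadjusted p under 0.05 (limma), against 16.5% of all tested genes. The other 3 had positive changes. G0s2 had the largest change of the list, -1.57 ± 0.58 (limma adjusted p = 0.182). It had 28.6, 155 and 84.1 FPKM in HO and 146, 301 and 227 FPKM in WT, and its groups overlapped.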

How the data were processed

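RNA sequencing of liver was analysed from 3 HO and 3 WT libraries, grouped by their titles. Per the labels' protocols, RNA was taken up in Trizol and libraries were made with a directional kit. Values in the deposited table are FPKM per gene and library, as the authors computed them. Build mm10 and the tools StringTie, HISAT2, HTSeq and DESeq2 stand in the submitters' processing notes, with no version or role. Neither the tool behind the FPKM values nor the use of strand in counting is stated there. FPKM is relative to the other genes of a library, so a change in abundant genes shifts the rest. Positions, exonic lengths and overlaps came from GENCODE mouse release 21, where all 24034 identifiers were found.

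Read equivalents were derived from the most frequent FPKM times exonic length among low values. Only 29.1% to 30.9% of low values were whole multiples of it within 0.02 reads, so counts were not recovered and no count model was fitted. The 13250 genes that averaged 0.5 FPKM or more were fitted as log2(FPKM + 0.5) with limma 3.58.1 (R 4.3.3), using eBayes with a trend, group as the only term, two-sided tests and Benjamini-Hochberg adjustment at 0.05 over all genes fitted. The fit was checked on simulated data, and no set test was made. The genes, lists, tests and alternatives were chosen with earlier results of these data known. Named in full were the 4 regulators, any gene past the threshold, the 4 with the smallest p and the most abundant of each other step, and of other lists those past the threshold and the 2 with the smallest p. Genes of the library and marker checks outside that rule (Nnt, Pck1, Dbp, Ciart and others), G0s2 and further genes of the set were named after their values were seen. A planned comparison of protein sequences was not made. The alternatives were array weights (with statmod 1.5.0), robust eBayes, eBayes with no trend, pseudocounts of 1 and 0.1, no filter, a filter at 1 FPKM, quantile normalization, median-of-ratios scaling, a replicate block and leaving out each library. Figures were drawn with matplotlib 3.10.9, and tables handled with pandas 2.3.3, numpy 2.4.6 and scipy 1.17.1 under Python 3.11.15.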

Additional observations from a re-analysis of the deposited data

How the results depend on the processing

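Me1 kept its negative sign in all 17 alternatives and passed in 11. The number of genes of the set that passed was 0 with no filter and 8 with array weights (7 lower, 1 higher), 0 to 1 with 1 library left out, and 4 without HO replicate 1 and WT replicate 3 together, a fit chosen after seeing the data. Of all genes tested, 151 passed, against 100 with a pseudocount of 0.1, 40 with no filter, 77 with eBayes without a trend, 941 with array weights, 6 to 259 with 1 library left out, and 693 without that pair. The median log2 change of the set was -0.38 to -0.24 with 1 library left out and -0.21 without the pair. With 1 library left out, the median was -0.68 to -0.40 for acetyl-CoA and NADPH supply, -0.45 to -0.092 for the regulators (-0.13 without the pair), -0.21 to -0.11 for glycerolipid assembly (-0.067 without the pair), and -0.70 to -0.021 for fatty acid synthesis. The glycerolipid median was also -0.23 with no filter, -0.087 with array weights, -0.054 after quantile normalization and -0.042 after median-of-ratios scaling. The median of the 3 fatty acid synthesis genes, set by Acacb, turned to 0.0089 with array weights and to 0.20 without the pair, as Acacb itself did. With 1 library left out, Dgat2 spanned -0.055 to 0.15, with negative values of -0.055 without HO replicate 1 and -0.036 without WT replicate 1, and Thrsp spanned -0.49 to 0.13, with 0.13 without WT replicate 3 and also without the pair. The cause of these shifts was not tested.

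The replicate numbers did not pair the samples: deviations from the group means correlated at 0.0661, -0.0282 and 0.0147 for numbers 1, 2 and 3 over the tested genes, and HO replicate 1 correlated best with WT replicate 2. With a replicate block 25 genes of the whole table and 0 of the set passed, and 24 of the 32 changes stayed negative; the adjusted p under the block was 0.0757 for Me1, 0.0632 for Slc25a10, 0.0632 for Gpd1 and 0.0676 for Lipa (limma). Groups of 3 limit every p-value. Scd2 and Pnpla3 held about 1 read equivalent or less in their lowest library, an HO library in both, and their levels there are imprecise.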
